A study of Mus musculus with 9 samples.

Results

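The microRNA genes (symbols beginning Mir) and the small nucleolar RNA genes (Snora and Snord) of mouse lung were taken from a study of bleomycin injury treated with homoharringtonine. They were all the genes so named in the authors' tables of 3 comparisons. They numbered 47 of the 1908 genes named there and made up 48 of the 41345 probe sets on the array: 24 for 23 microRNA genes, 8 for Snora genes and 16 for Snord genes. A name exists only for the 2129 probe sets listed in at least 1 of those comparisons, so these 48 were in effect chosen by a change on these same arrays. Their counts of calls are descriptions and support nothing, and small RNA probe sets that were not listed are not analysed here.

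All 9 lungs came from male C57BL/6J mice aged 11 weeks, with 3 arrays per group of total RNA. At 8 weeks PBS or bleomycin at 2 U/kg was instilled into the trachea. Bleomycin is a DNA-breaking antibiotic used to scar rodent lungs. The vehicle group got no bleomycin, the bleomycin group got it alone, and the last group got bleomycin and then homoharringtonine, an inhibitor of translation elongation, at 0.545 mg/kg into the peritoneum. Injections of drug or its carrier began after 5 days and were given 2 times a week for 15 days. The labels name 1 mouse per sample, and nothing says whether RNA was pooled.

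MicroRNAs are short RNAs cut from hairpin precursors by Drosha and Dicer. Loaded on Argonaute proteins, they repress messenger RNAs that pair with the seed, bases 2 to 8 of the mature strand. Small nucleolar RNAs guide chemical modification of ribosomal RNA: box C/D members (Snord) direct ribose methylation and box H/ACA members (Snora) direct pseudouridylation. A few, among them U8 and U14, act in cutting the ribosomal RNA precursor instead. Most are processed from introns of host genes, many of which encode ribosomal proteins or translation factors.

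Mature strands of some of the members are printed with the seed in capitals, 5′ to 3′, from RefSeq on GRCm38.p6. They include members that did not pass, and strands of Mir691 and Mir701, which fell, are not printed. Of the 23 microRNA genes 18 had an entry there. let-7f and let-7c share the seed GAGGUAG, which 11 mature names in the table carry, and otherwise no seed was shared between the strands printed. The array does not measure these strands: its probe sets lie at the hairpin or over a longer span that holds it, in total RNA.
miR-126a-3p: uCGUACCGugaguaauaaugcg
let-7f-5p: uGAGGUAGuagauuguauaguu
let-7c-5p: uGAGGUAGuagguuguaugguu
miR-103-3p: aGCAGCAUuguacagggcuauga
miR-181b-5p: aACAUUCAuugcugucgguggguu
miR-29a-3p: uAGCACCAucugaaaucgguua
miR-30e-5p: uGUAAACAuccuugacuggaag
miR-27a-3p: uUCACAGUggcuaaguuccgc
miR-568: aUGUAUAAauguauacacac
miR-1191a: cAGUCUUAcuauguagcccua
miR-511-3p: aAUGUGUAgcaaaagacaggau
miR-22-3p: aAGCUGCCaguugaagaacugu
miR-134-5p: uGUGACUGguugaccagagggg
miR-692: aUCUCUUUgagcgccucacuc

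The deposited values are log2 signals that had been brought to a common scale, with array medians from 4.49 to 4.57 and lower quartiles from 3.21 to 3.24. Surfactant protein A gene Sftpa1, a defining gene of lung epithelium, lay between 10.18 and 11.41 on every array. The third homoharringtonine array stood apart in the small nucleolar RNAs. It was the highest of its group in 21 of their 24 probe sets (87.5%), against 29.5% of all probe sets, and in 3 of the 24 microRNA probe sets. Group medians for these RNAs are therefore given with and without it. Signals of different probe sets are not compared, because probe response differs. Where 3 sets of 3 values follow each other, their order is vehicle, bleomycin, and bleomycin with homoharringtonine. In whole lung, fewer cells of a type and less RNA per cell cannot be told apart.

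With bleomycin the named small nucleolar RNAs were mostly higher and the named microRNAs mostly lower. The median log2 difference, bleomycin minus vehicle, was 0.81 over the 24 Snora and Snord probe sets and -0.76 over the 24 microRNA probe sets, beside 0.02 over all probe sets. The authors' deposited table listed 22 of the small nucleolar RNA probe sets as higher and 1 as lower, and 8 microRNA probe sets as higher and 14 as lower. The same table lists small RNA probe sets with no such symbol, and these were split otherwise, with 23 small nucleolar RNA probe sets higher and 17 lower, and 11 microRNA probe sets higher and 4 lower. The medians and calls given here are of the named members and do not cover those probe sets. The authors listed 5.02% of all probe sets in that comparison, 2.19% as higher and 2.82% as lower. In the limma fit adjusted over all probe sets, 21 of the 48 passed an adjusted p of 0.05. These were 6 microRNA probe sets that rose, 10 that fell and 5 Snord probe sets that rose, with 7.78% of all probe sets called (3.37% higher and 4.42% lower). At an unadjusted p under 0.05 there were 42, and the share of all probe sets at that unadjusted threshold is not given. Leaving dim probe sets out of the fit kept 38 members, of which 12 were called higher and 5 lower, and Mir126a, Mir28c, Mir103-2, Mir181b-1 and Mirlet7f-1 were among those left out. A fit of the 2 groups alone called 17 higher and 11 lower. With single arrays left out the calls ran from 6, without vehicle replicate 3 or bleomycin replicate 2, to 28, without homoharringtonine replicate 3. The shares of all probe sets called in these alternative fits are not given. The changes in count are therefore not shown to be particular to the members. The 3 bleomycin arrays lay wholly above the 3 vehicle arrays in 21 small nucleolar RNA probe sets and 8 microRNA probe sets, and wholly below them in 1 and 14. Over the array 28% of probe sets did not overlap, 13.9% higher and 14.1% lower. Since the listing used these arrays, nothing is read from any of these shares. The members nearest its limits had an absolute fold of 1.52 and an adjusted p of 0.0486 in the authors' deposited table.

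**Figure D1:**
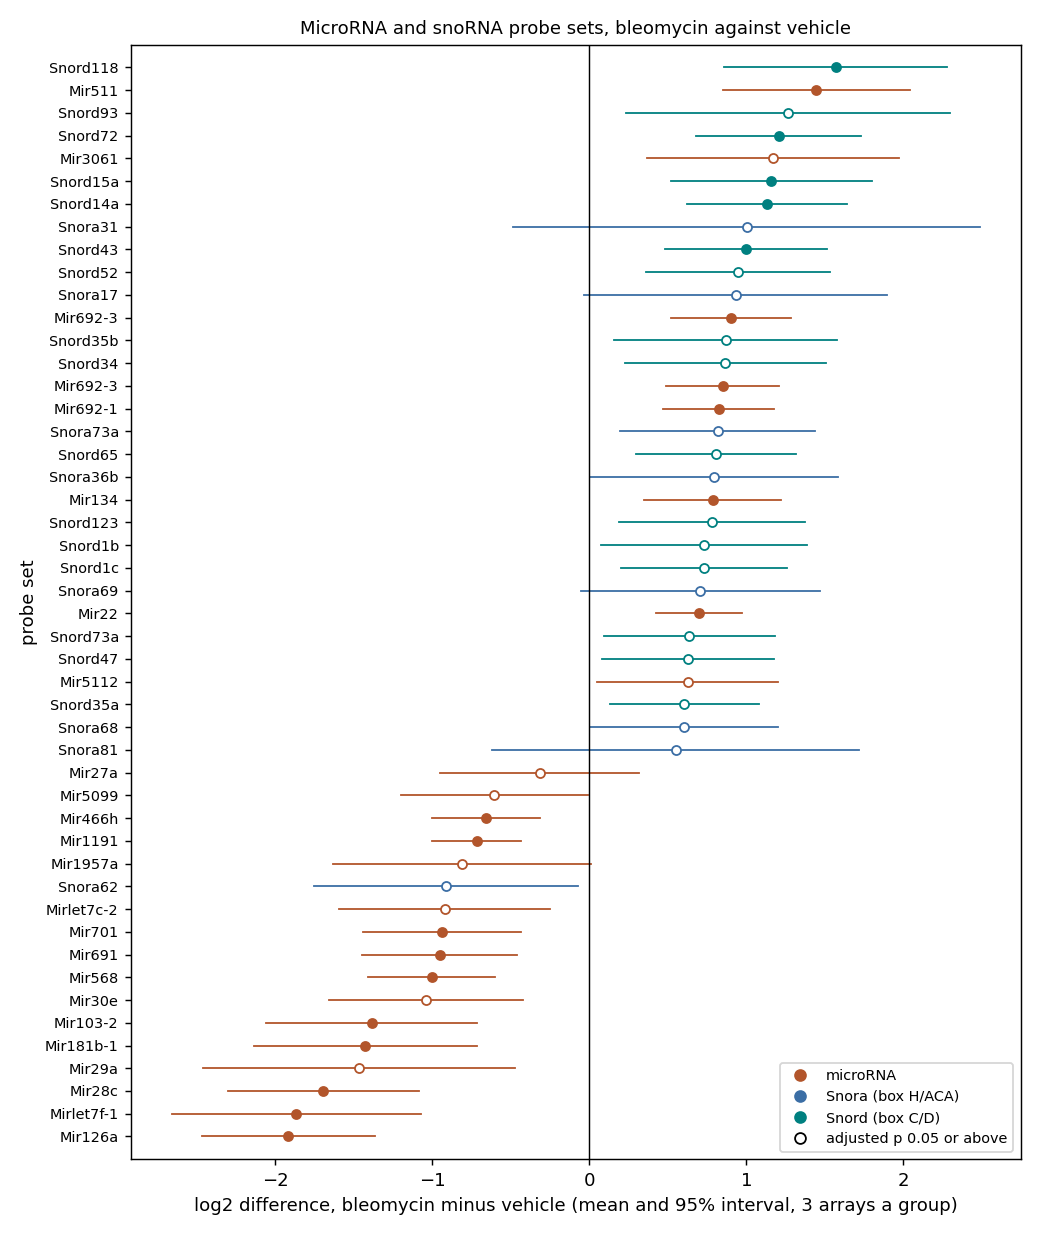
Log2 difference, bleomycin minus vehicle, for each of the 48 probe sets, with the 95% interval of the limma fit on 3 arrays a group. Filled points passed an adjusted p of 0.05. Of the small nucleolar RNAs 1 point (Snora62) lies below 0, and of the 24 microRNA points 16 do.

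Mir126a, the endothelial microRNA that lies in an intron of Egfl7, had the smallest p of all members. Its probe set (chr2:26591357-26591429) had log2 signals of 4.17, 4.47 and 4.60 on the vehicle arrays, 2.61, 2.41 and 2.48 with bleomycin, and 3.95, 3.01 and 3.07 with bleomycin and homoharringtonine. Every bleomycin array lay below every vehicle array, and the homoharringtonine arrays lay between those groups without touching either. Mir126a fell 3.77-fold (log2 difference -1.91, SE 0.24, adjusted p 0.00352). Its bleomycin mean is under the lower quartile of the arrays, and the files give no background level, so the size of the fall is uncertain. The 3 endothelial markers Pecam1, Cdh5 and Kdr also fell, by 2.05-, 2.02- and 3.81-fold. Their log2 summed signal was 11.59 to 11.63 in vehicle, 10.23 to 10.50 with bleomycin and 10.55 to 11.06 with homoharringtonine. Markers of other cell types fell too. All 3 named of 5 type 2 epithelial markers fell (Lamp3 2.80-fold, Abca3 1.90-fold, Sftpa1 1.87-fold), with a log2 summed signal of 12.16 to 12.26 in vehicle, 10.82 to 11.47 with bleomycin and 11.70 to 12.17 with homoharringtonine. Of 4 type 1 epithelial markers Rtkn2 is named, and its pair of probe sets fell 4.08- and 5.77-fold, from a sum of 10.31 to 10.42 in vehicle to 7.66 to 8.53 with bleomycin and 9.07 to 9.75 with homoharringtonine. Both B cell markers fell (Ms4a1 5.99-fold, Cd79a 2.30-fold), with sums of 7.40 to 7.53, then 5.39 to 5.90, then 6.44 to 6.78. Of 3 cardiac muscle markers Myl7 (2.48-fold) and Pln (2.21-fold) fell and Actc1 was 2.70-fold lower without passing, with sums of 7.01 to 7.76, then 5.86 to 6.30, then 6.13 to 7.31. In each of these lists the vehicle and bleomycin sums did not overlap. The part of any of these cell types in the falls of Mir126a and the other microRNAs was not tested.

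The let-7 family members, long known for repressing growth and pluripotency genes, had lower means with bleomycin, and 1 of the pair passed. Mirlet7f-1 (chr13:48537829-48537917) had signals of 3.89, 5.12 and 3.91 in vehicle, 2.40, 2.30 and 2.64 with bleomycin and 2.94, 3.78 and 2.96 with homoharringtonine added. The bleomycin arrays were the lowest and did not overlap either other group. The fitted fall was 3.64-fold (adjusted p 0.0168), but its bleomycin mean lies under the lower quartile of all signals, and the files give no background level, so the size of the fall is uncertain. Mirlet7c-2, which has the same seed, read 4.93, 5.12 and 5.26, then 4.96, 3.75 and 3.85, then 4.36, 4.12 and 3.95. Here the first bleomycin array reached the vehicle level, and the difference of -0.92 did not pass (adjusted p 0.0993). Both probe sets are of cross-hybridisation type 3, a class that the array's annotation sets apart from type 1, the class for probe sets unique to their target. Of the 48 probe sets 25 are of type 3, among them the called Mir181b-1, Mir568, Mir691, Mir1191, Snord43 and Snord118.

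Other microRNA probe sets that fell were Mir28c, Mir103-2, Mir181b-1, Mir568, Mir691, Mir701, Mir1191 and Mir466h. Mir28c (chr15:53614205-53614279), inside Samd12, had 3.98, 4.51 and 4.97 in vehicle, 3.12, 2.35 and 2.91 with bleomycin and 4.03, 4.28 and 4.36 with homoharringtonine. The bleomycin arrays stood below all arrays of the other groups, and the homoharringtonine arrays lay within the vehicle range. The fitted fall with bleomycin was 3.23-fold (adjusted p 0.00893), toward a bleomycin mean that is also under the lower quartile, so its size is uncertain too. Mir103-2 (chr2:131288052-131288137), in an intron of the pantothenate kinase gene Pank2, read 4.62, 5.61 and 5.43, then 4.22, 3.68 and 3.61, then 4.80, 4.33 and 4.06. Vehicle and bleomycin did not overlap, the homoharringtonine arrays overlapped both, and the fall with bleomycin was 2.61-fold (adjusted p 0.0266). Mir568 (chr16:43640655-43640737) lies within Tigit on the opposite strand. Its signals were 7.80, 7.85 and 8.13 in vehicle, 7.30, 6.66 and 6.82 with bleomycin and 7.20, 7.04 and 6.88 with homoharringtonine, so both treated groups were under every vehicle array. Mir1191 (chr7:27205536-27205655) showed the same order, with 6.28, 6.35 and 6.10, then 5.38, 5.53 and 5.67, then 5.85, 5.56 and 5.57. Their falls with bleomycin were 2.00-fold (adjusted p 0.0138) and 1.64-fold (adjusted p 0.0125).

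Mir181b-1 fell 2.68-fold, Mir691 1.93-fold and Mir701 1.91-fold, with adjusted p values of 0.0288, 0.0338 and 0.0381. Mir466h, in an intron of Sfmbt2 that holds a large rodent microRNA cluster, fell 1.58-fold (adjusted p 0.0342) although the authors' deposited table did not list it for bleomycin. The calls of Mir691, Mir701 and Mir466h were each lost in 7 of 16 alternatives, that of Mir181b-1 in 6 of 15 and that of Mir103-2 in 5 of 15. Mir29a, whose family represses collagen messenger RNAs and has been studied in lung fibrosis, did not pass. Its signals were 3.53, 3.79 and 3.38 in vehicle, 1.76, 1.60 and 2.94 with bleomycin and 2.54, 3.78 and 2.33 with homoharringtonine. The bleomycin arrays were lower without overlap but spread widely, with a log2 difference of -1.46 (SE 0.44, adjusted p 0.0797). Of a list of 32 microRNA symbols studied in lung fibrosis, 1 (Mir29a) was matched by exact symbol in these tables. The list counts symbols, and some genes stand in it under more than 1. It holds Mir126, a shorter symbol for the named member Mir126a, which the exact match missed. Mir30e, with 3.32, 3.37 and 3.76 in vehicle and 2.81, 2.26 and 2.27 with bleomycin, missed the threshold narrowly (adjusted p 0.0532). It passed in 6 of 15 alternatives. Mir5099 had a log2 difference of -0.60 (adjusted p 0.21). The bleomycin means of Mir126a, Mir181b-1, Mir28c, Mir29a, Mir30e and Mirlet7f-1 lay under the lower quartile of all signals, and those of 0 small nucleolar RNA probe sets did. The folds of those 6 share the limit given for Mir126a.

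Mir511, which is encoded within the mannose receptor gene Mrc1 of macrophages, was the largest rise among the microRNAs. The probe set (chr2:14261003-14261081) gave 5.23, 4.85 and 4.38 in vehicle, 5.79, 6.27 and 6.74 with bleomycin and 4.69, 4.76 and 4.80 with homoharringtonine added. All 3 bleomycin arrays were above the other groups, and the homoharringtonine arrays lay within the vehicle range. The rise was 2.73-fold (SE 0.26 on the log2 difference of 1.45, adjusted p 0.0151). Mrc1 itself read 7.88, 7.85 and 7.69, then 8.87, 9.38 and 8.91, then 8.16, 8.10 and 8.49. It rose 2.37-fold with bleomycin (adjusted p 0.00414). All 3 macrophage markers, Cd68, Marco and Mrc1, rose, and none was below 5.41 on any array. Their log2 summed signal was 8.53 to 8.69 in vehicle, 10.05 to 10.50 with bleomycin and 9.06 to 9.61 with homoharringtonine. Without Mrc1 it was 7.34 to 7.48 in vehicle, 9.20 to 9.61 with bleomycin and 8.01 to 8.73 with homoharringtonine. Their part in the Mir511 result was not tested.

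Mir22, a widely expressed microRNA, gave 5.80, 6.02 and 5.83 in vehicle, 6.57, 6.53 and 6.66 with bleomycin and 6.05, 5.71 and 5.71 with homoharringtonine. The bleomycin arrays were the highest, with no overlap, and the homoharringtonine arrays overlapped the vehicle arrays. Mir22 rose 1.63-fold (adjusted p 0.0117). Its probe set (chr11:75461539-75466690) covers the 5152 bases of the host transcript gene Mir22hg, of which the hairpin is 95, so the probe set is not limited to the hairpin. Mir134, from the imprinted cluster on chromosome 12, had 5.26, 4.73 and 4.80 in vehicle, 5.37, 5.81 and 5.95 with bleomycin and 5.63, 5.31 and 5.55 with homoharringtonine. The lowest bleomycin array was just above the highest vehicle array, and the rise of 1.72-fold had an adjusted p of 0.0432. That call was lost in 9 of 16 alternatives, with adjusted p values up to 0.147, and that of Mir511 in 3 of 16.

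The 3 Mir692 probe sets rose together, by 1.77- to 1.87-fold (adjusted p 0.016 to 0.0176). Relative to each one's vehicle mean they differed by at most 0.13 on the log2 scale on any array. Mir692-1 gave 9.65, 9.58 and 9.14 in vehicle, 10.35, 10.37 and 10.12 with bleomycin and 10.24, 9.92 and 10.01 with homoharringtonine. They are of cross-hybridisation type 3. The probe set named Mir692-3 on chromosome 13 covers the ferritin light chain pseudogene Ftl1-ps1, and another so named on chromosome 4 lies at Mir692-2 within the pseudogene Ftl2-ps. The 3 values cannot be counted as separate genes, because they may read the same transcripts. Mir3061 (2.93, 3.88 and 3.76 in vehicle and 5.17, 4.16 and 4.75 with bleomycin) and Mir5112 (7.55, 7.50 and 7.13 and 7.72, 8.13 and 8.21) were higher without overlap and missed the threshold, with adjusted p values of 0.0823 and 0.18.

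**Figure D2:**
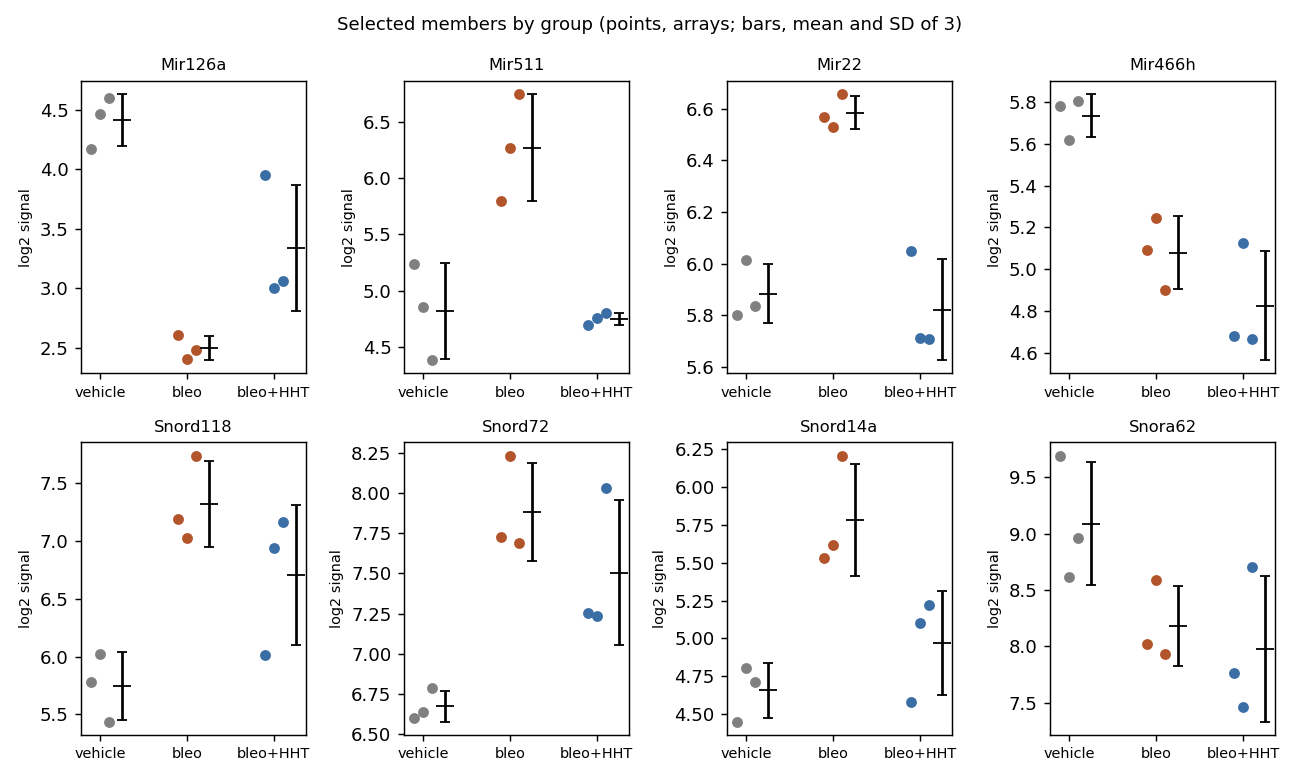
Log2 signal of 8 members on each of the 9 arrays by group (bleo, bleomycin; bleo+HHT, bleomycin and homoharringtonine), with the mean and SD of 3 arrays, each panel on its own axis. Mir126a was 4.17 to 4.60 in vehicle and 2.41 to 2.61 with bleomycin, and Snord118 was 5.44 to 6.02 and 7.03 to 7.74.

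Among the box C/D RNAs, 5 of 16 rose and the other 11 were higher on average without passing. Snord118, the U8 RNA needed to mature the large-subunit ribosomal RNAs in vertebrates, showed the largest rise. Its probe set (chr11:69073426-69073562) read 5.78, 6.02 and 5.44 in vehicle, 7.19, 7.03 and 7.74 with bleomycin and 6.01, 6.94 and 7.16 with homoharringtonine added. The bleomycin arrays were all above the vehicle arrays, while the first homoharringtonine array was at the top of the vehicle range and the others were near the bleomycin range. The rise with bleomycin was 2.97-fold (log2 difference 1.57, SE 0.31, adjusted p 0.0206), and the probe set is of cross-hybridisation type 3. Snord118 is the only small nucleolar RNA member that does not lie wholly within another annotated gene, and partial overlaps were not recorded. Leaving out a vehicle array, or the third bleomycin array, put its adjusted p between 0.0507 and 0.0851, which made 4 of 16 alternatives.

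Snord14a, a U14 RNA, whose yeast counterpart is required to process small-subunit ribosomal RNA, lies in the ribosomal protein gene Rps13 (chr7:116333171-116333257). It gave 4.45, 4.80 and 4.71 in vehicle, 5.53, 5.62 and 6.21 with bleomycin and 4.58, 5.10 and 5.22 with homoharringtonine. The bleomycin arrays were above both other groups, and the rise was 2.19-fold (adjusted p 0.0203). Snord72 (chr15:5118404-5118484, in Rpl37) gave 6.60, 6.64 and 6.79, then 7.73, 8.23 and 7.69, then 7.25, 7.24 and 8.03. Its vehicle arrays were below all others, the third homoharringtonine array reached the bleomycin range, and the rise was 2.31-fold (adjusted p 0.0178). Snord15a (chr7:99482785-99482932, in Rps3) had 7.81, 7.88 and 7.61 in vehicle, 8.87, 9.20 and 8.72 with bleomycin and 8.16, 8.51 and 9.39 with homoharringtonine. Snord43 (chr15:80082859-80082906, within Rpl3, strand not given) had 3.92, 4.55 and 3.95, then 5.16, 5.25 and 5.01, then 4.66, 4.86 and 5.43. In both, all vehicle arrays were the lowest and the third homoharringtonine array was the highest of the 9. They rose with bleomycin by 2.23-fold (adjusted p 0.0422) and 2.00-fold (adjusted p 0.0338). The Snord15a call was lost in 8 of 16 alternatives (adjusted p up to 0.143), Snord43 in 6 (up to 0.126), Snord14a in 5 and Snord72 in 4. Snord52 missed the threshold, with 3.63, 4.34 and 3.62 in vehicle, 4.65, 5.16 and 4.60 with bleomycin, 4.32, 4.52 and 5.02 with homoharringtonine and an adjusted p for bleomycin of 0.0615.

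Several box C/D genes share a host or a neighbourhood. Snord34 (chr7:45126601-45126670) and Snord35a (chr7:45126346-45126435) lie 165 bases apart in Rpl13a, and Snord35b is a further copy of the Snord35 family. Snord34 read 6.47, 6.76 and 6.28 in vehicle, 7.27, 7.12 and 7.73 with bleomycin and 6.91, 8.03 and 7.46 with homoharringtonine. Snord35a read 8.18, 8.04 and 8.25, then 8.62, 8.87 and 8.79, then 8.35, 7.75 and 8.67. Snord35b read 6.22, 6.10 and 6.15, then 6.67, 7.06 and 7.34, then 6.26, 5.76 and 7.13. With bleomycin all 3 were above vehicle without overlap, by 1.82-, 1.52- and 1.83-fold, and none passed (adjusted p 0.103, 0.122 and 0.136). Snord35a and Snord35b each passed in 2 of 16 alternatives and Snord34 in 0. On the homoharringtonine arrays they differed in order: Snord34 was highest on the second array and the Snord35 genes were lowest there. Snord1b (chr11:116674147-116674223) and Snord1c (chr11:116672505-116672582) lie 1564 bases apart in Snhg16, a host transcript that codes for no protein. Snord1b read 8.24, 7.99 and 7.89, then 8.44, 8.89 and 8.99, then 7.98, 7.88 and 9.00, and Snord1c read 6.73, 6.51 and 6.57, then 7.21, 7.32 and 7.47, then 6.59, 6.59 and 7.51. Both were 1.66-fold higher with bleomycin, without overlap and without passing (adjusted p 0.17 and 0.0976). Snord1c passed in 2 of 16 alternatives and Snord1b in 1. In each of the pair the third homoharringtonine array was the highest of the 9.

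No box H/ACA probe set passed in the fit of all 9 arrays. Of the 8, 7 were higher on average with bleomycin and Snora62 was lower. Snora73a (chr4:132352775-132352979), a U17 RNA, which acts in processing the small-subunit ribosomal RNA, had the smallest p. It gave 9.14, 9.29 and 8.78 in vehicle, 9.78, 10.12 and 9.75 with bleomycin and 9.02, 9.51 and 10.16 with homoharringtonine. The bleomycin arrays lay above vehicle, the third homoharringtonine array was the highest of the 9, and the log2 difference with bleomycin was 0.82 (adjusted p 0.11). Snora62 (chr9:120130415-120130563), in an intron of the ribosomal protein gene Rpsa, had a difference of the opposite sign, with 9.69, 8.62 and 8.96 in vehicle, 8.02, 8.59 and 7.93 with bleomycin and 7.77, 7.47 and 8.70 with homoharringtonine. The highest bleomycin array was just under the lowest vehicle array, and the difference of -0.91 did not pass (adjusted p 0.18). Snora17 (chr2:26639190-26639321, in Snhg7) read 7.42, 7.22 and 7.08, then 7.92, 8.63 and 7.95, then 7.21, 7.40 and 8.97. Snora36b (chr1:185242907-185243043, in Rab3gap2) read 6.98, 7.31 and 6.25, then 7.78, 7.48 and 7.66, then 6.97, 7.61 and 8.28. Both were higher with bleomycin than in vehicle without overlap, and in both the third homoharringtonine array was the highest of the 9. Snora68 read 7.85, 7.25 and 7.07, then 7.73, 8.41 and 7.84, then 7.80, 7.78 and 8.38, with vehicle and bleomycin overlapping. Snora69 (chrX:37082912-37083042, in Rpl39) read 7.91, 7.67 and 7.76, then 8.38, 8.76 and 8.32, then 7.67, 7.76 and 9.07, and these groups did not overlap. The adjusted p values of Snora17, Snora36b, Snora68 and Snora69 were 0.231, 0.216, 0.213 and 0.248. Snora17 passed in 1 of 16 alternatives, and Snora69 and Snora73a in 2 each. Without the third homoharringtonine array the adjusted p in the limma fit was 0.0371 for Snora17 and 0.0264 for Snora69.

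The remaining small nucleolar RNA members were Snora31, Snord47, Snord65, Snord73a, Snord93 and Snord123. Their folds with bleomycin ran from 1.55 (Snord47) to 2.40 (Snord93), all higher, and their adjusted p values from 0.0644 (Snord65) to 0.406 (Snora31). Snord65 passed in 4 of 16 alternatives, Snord47 in 2, and Snord73a and Snord93 in 1 each.

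Of the 24 small nucleolar RNA probe sets 23 lie within a gene, 20 of them on a known matching strand, and 11 within ribosomal protein genes. Of the microRNA probe sets 12 lie in a gene on the same strand. Host genes carry a name, and so a value, only where the authors listed them. Samd12, the host of Mir28c, gave 5.40, 6.07 and 6.02 in vehicle, 4.50, 4.54 and 4.02 with bleomycin and 5.50, 5.07 and 5.28 with homoharringtonine. It fell 2.77-fold with bleomycin (adjusted p 0.00686), in the same direction as Mir28c. Slc2a1, the glucose transporter gene that holds Mir1957a, rose, while the mean of its member was lower. It gave 6.47, 6.57 and 6.37, then 7.10, 7.11 and 7.09, then 6.16, 6.46 and 6.51, and it rose 1.55-fold with bleomycin (adjusted p 0.0147). Mir1957a (chr4:119129779-119129844) gave 6.46, 6.27 and 6.53 in vehicle, 5.44, 5.83 and 5.55 with bleomycin and 5.59, 4.40 and 3.91 with homoharringtonine. It was lower in both treated groups, without passing with bleomycin (difference -0.81, adjusted p 0.222), and its probe set is of cross-hybridisation type 3.

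Eif4a2, the translation initiation helicase gene that holds Snora81, gave 8.27, 8.53 and 8.39 in vehicle, 7.64, 7.23 and 7.18 with bleomycin and 8.13, 8.06 and 8.09 with homoharringtonine. It fell 2.06-fold with bleomycin (adjusted p 0.00411). Snora81 (chr16:23110756-23110933) gave 9.48, 10.06 and 8.73, then 10.33, 9.58 and 10.01, then 9.30, 11.29 and 10.85. The vehicle and bleomycin arrays overlapped, and its difference with bleomycin was 0.55 (SE 0.51), which did not pass. The non-coding host 1110038B12Rik of Snord52 has a pair of probe sets. The first rose 1.83-fold (adjusted p 0.00901), and the second was 1.60-fold higher without passing (adjusted p 0.109), beside 1.93-fold for Snord52. 2410006H16Rik, the host of Snord65, was 1.70-fold higher (adjusted p 0.0631), beside 1.75-fold for Snord65 (adjusted p 0.0644). The differences between a member and its host were not tested.

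**Figure D3:**
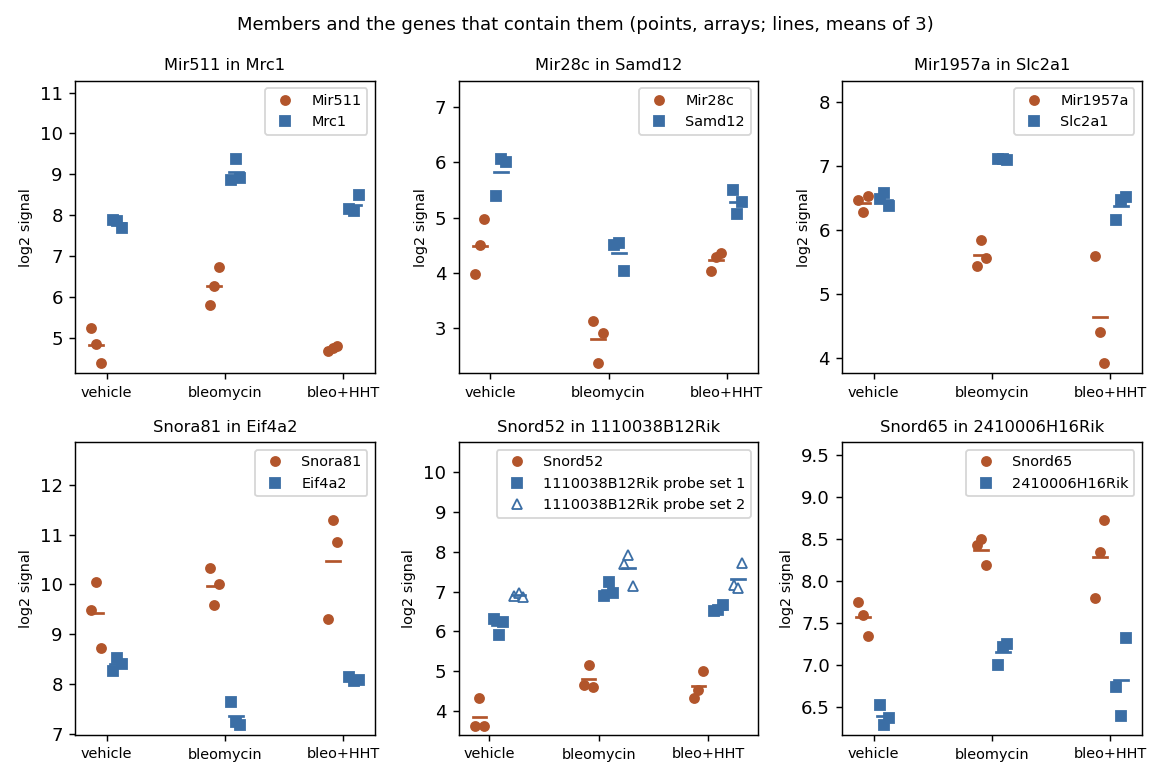
Log2 signals of 6 members (circles) and of the genes that contain them (squares and triangles) on each array, with lines at the means of 3 (bleo+HHT, bleomycin and homoharringtonine). Mir511 and Mrc1 are both higher with bleomycin and Mir28c and Samd12 both lower, while Mir1957a is lower and Slc2a1 higher; levels of different probe sets are not comparable.

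Host genes of small nucleolar RNAs often begin with a run of C and T at the transcription start, the terminal oligopyrimidine motif of translation genes. The start windows of the 18 hosts with an entry in the RefSeq promoters of GRCm38.p6 were searched on the coding strand for a run of at least 6 bases, each C or T, that covers the annotated start. At any start in the table such a run was found in 5 of 18 hosts (27.8%) and in 8.48% of the 27025 genes in the table. Runs of G and A, the same search on the other strand, were in 0 of 18 and 13.2%. All 5 were among the 8 non-coding hosts. Of the 10 protein-coding hosts, which include the ribosomal protein genes searched, Eif4a2 and Tpt1, 0 had such a run, and the longest was 5 bases in Rpl39. The 5 windows hold 20 bases before the start and 10 from it, with the run in capitals. Gas5 has 2 starts in the table, and its run is at the start that lies 565 bases inside the annotated gene. 1110038B12Rik also has 2, and its run is at a start 3 bases inside. The match describes annotated starts, which may not be the starts used in these lungs. A host without a run here is therefore not shown to lack the motif. No other meaning is drawn from the match.
Snhg18 (host of Snord123, chr15:32244653-32244682, minus strand): ccctgaccttcccaggCCCCTCCTCTagcc
2410006H16Rik (host of Snord65, chr11:62602857-62602886, plus strand): ggcgctcacgcgccgTCTTTCTCTgcggcc
1110038B12Rik (host of Snord52, chr17:34952459-34952488, minus strand): gaggcgggcggcacacgggTCTCTTTgtgc
Gas5 (host of Snord47, chr1:161035146-161035175, plus strand): gactcagccgccatctcagCCTTTCggagc
Snhg7 (host of Snora17, chr2:26640235-26640264, minus strand): gtggcgtggagatgctcggCCTCTCggcag

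Genes of the same pathways carry values only where listed, so their counts are descriptions too. Of 21 genes of microRNA biogenesis and action 0 are named in the tables. Of 19 symbols of small nucleolar ribonucleoprotein genes 2 are named and both rose with bleomycin: nucleolin (Ncl) by 1.54-fold (adjusted p 0.0263) and the H/ACA protein gene Nhp2 by 1.55-fold (adjusted p 0.0496). Of 53 symbols of host genes of small nucleolar RNAs 8 are named. Of these 6 rose, among them Rpsa and, counted again, Ncl. Eif4a2 fell, and Snhg11 was 1.63-fold lower without passing (adjusted p 0.0734). Snhg6, a non-coding host, rose 3.49-fold (adjusted p 0.00305), Rpl32 1.90-fold (adjusted p 0.00671) and Snhg1 1.65-fold (adjusted p 0.0265). The Rpsa probe set among them lies on chromosome 3, away from the gene on chromosome 9 that holds Snora62, so its value is not taken as that of the host.

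Homoharringtonine against bleomycin gave 0 calls among the 48 probe sets in the limma fit, with 0.0943% of all probe sets called (0.0387% higher and 0.0556% lower). At an unadjusted p under 0.05 there were 10, and the share of all probe sets at that unadjusted threshold is not given. This comparison and the one with vehicle share arrays with the listing that chose the members, so each is given by its own values. The median log2 difference, homoharringtonine minus bleomycin, was -0.28 over the small nucleolar RNA probe sets and 0.09 over the microRNA probe sets, beside near 0 over all. Without the third homoharringtonine array it was -0.63 and 0.19, and 22 of the 24 small nucleolar RNA probe sets were lower with and without that array. The authors listed 22 of the 24 as higher on these same bleomycin arrays. That choice by itself favours lower values with homoharringtonine, so nothing is read from these medians and counts. The first homoharringtonine array had a median of 0.11 above each small nucleolar RNA's vehicle mean, the second 0.44 and the third 1.13, while the bleomycin arrays had 0.74, 0.97 and 0.78. The median SD of these probe sets was 0.57 with homoharringtonine, 0.30 with bleomycin and 0.19 in vehicle, against 0.16 over all probe sets with homoharringtonine. The widest was Snora31, in the translationally controlled tumour protein gene Tpt1, with 7.00, 7.57 and 6.72 in vehicle, 7.91, 8.44 and 7.94 with bleomycin and 6.84, 7.38 and 9.78 with homoharringtonine. The third homoharringtonine array was the highest of the 9.

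**Figure D4:**
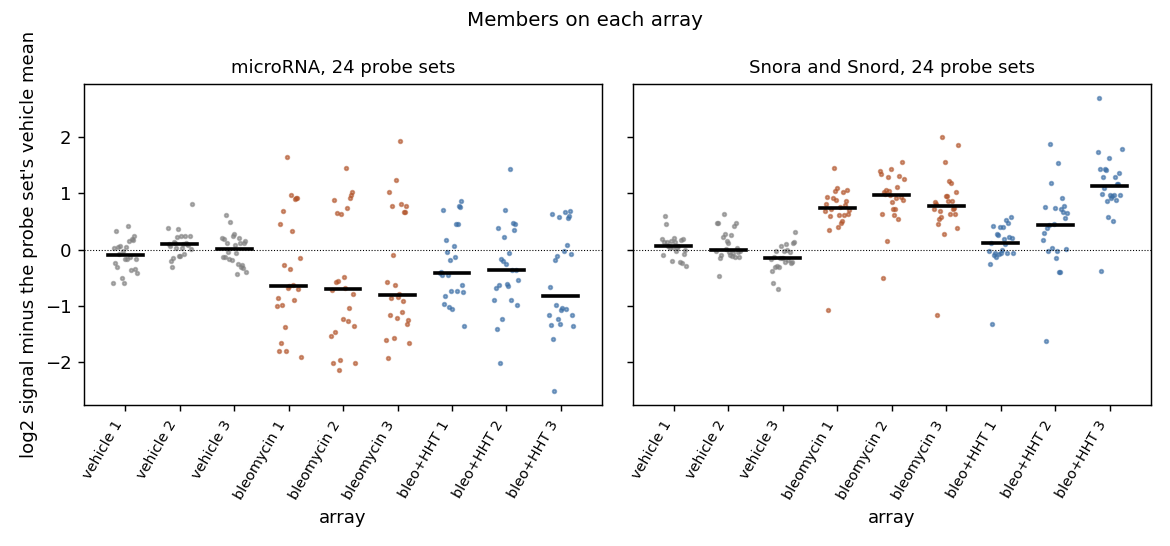
Log2 signal of every member minus its vehicle mean on each of the 9 arrays (points, probe sets; bars, medians over 24 probe sets; bleo+HHT, bleomycin and homoharringtonine), on the same axis for both classes. The small nucleolar RNA medians are 0.74 to 0.97 on the bleomycin arrays and 0.11, 0.44 and 1.13 on the homoharringtonine arrays.

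Mir511 was the only member that the authors' deposited table listed for homoharringtonine against bleomycin, as 2.87-fold lower with an adjusted p of 0.0015, in a list of 0.281% of all probe sets (0.121% higher and 0.16% lower). The limma fit gave the same fold with an adjusted p of 0.0861. With homoharringtonine the 3 arrays lay closely together, below every bleomycin array. Mir22 had the smallest adjusted p of the members (0.0682), with a log2 difference of -0.76 (SE 0.12), and its groups did not overlap. Both passed when dim probe sets were left out of the fit (adjusted p 0.0398 for Mir511 and 0.0312 for Mir22). Mir28c was 2.70-fold higher than with bleomycin alone (adjusted p 0.1) and Mir691 2.01-fold higher (adjusted p 0.132), each without overlap. Mir691 read 4.52, 5.12 and 5.00 in vehicle, 3.97, 3.84 and 3.97 with bleomycin and 5.33, 4.52 and 4.95 with homoharringtonine, so its homoharringtonine and vehicle arrays overlapped. In all, 7 microRNA probe sets and 1 small nucleolar RNA probe set (Snord14a, log2 difference -0.82, adjusted p 0.214) did not overlap between these groups, beside 14% of all probe sets (6.19% higher and 7.79% lower). Of the 22 microRNA probe sets listed for bleomycin, 16 had a homoharringtonine mean between the other group means, 3 lay past the vehicle mean (Mir22, Mir511 and Mir691) and 3 past the bleomycin mean (Mir1957a, Mir5112 and Mirlet7c-2). Of the 23 small nucleolar RNA probe sets 21 lay between and 2 past the bleomycin mean (Snora62 and Snord34). All these probe sets were listed for a gap between vehicle and bleomycin on these same arrays. That choice by itself favours a homoharringtonine mean between the other group means. The share over the other listed probe sets is not given, so nothing is read from these counts.

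Homoharringtonine against vehicle gave 1 call, Mir466h, with 0.506% of all probe sets called (0.193% higher and 0.312% lower). At an unadjusted p under 0.05 there were 26 members, and the share of all probe sets at that unadjusted threshold is not given. Mir466h (chr2:10514891-10514971) read 5.78, 5.62 and 5.81 in vehicle, 5.09, 5.25 and 4.90 with bleomycin and 4.68, 5.13 and 4.67 with homoharringtonine. Both treated groups were below every vehicle array and overlapped each other. It fell 1.88-fold (log2 difference -0.91, SE 0.15, adjusted p 0.0475). The call was lost in 10 of 16 alternatives, among them leaving out any vehicle array, with adjusted p values from 0.0227 to 0.195 over the alternatives, and the probe set is of cross-hybridisation type 3. The authors' deposited table listed 9 members for this comparison, 3 higher and 6 lower, and 0.711% of all probe sets (0.368% higher and 0.343% lower). The largest was Mir1957a, 3.44-fold lower with an adjusted p of 1.02e-08 in the authors' deposited table and of 0.0765 in the limma fit. The second and the third homoharringtonine arrays lay below all bleomycin arrays and the first within their range. Mir126a was 2.10-fold lower than in vehicle (adjusted p 0.0918) and Mir103-2 1.77-fold lower (adjusted p 0.231). Mir27a (chr8:84208672-84208758), of the miR-23a cluster, gave 5.75, 5.80 and 5.51 in vehicle, 5.41, 5.12 and 5.59 with bleomycin and 5.64, 4.46 and 4.71 with homoharringtonine. All Mir27a groups overlapped, and the difference of -0.75 from vehicle did not pass (adjusted p 0.244). Among the small nucleolar RNAs that the authors listed, Snord118 was 1.94-fold, Snord34 1.95-fold and Snora81 2.08-fold higher than vehicle, and Snora62 2.16-fold lower. Their adjusted p values in the limma fit were 0.195, 0.155, 0.36 and 0.202. The median difference from vehicle was 0.61 over the small nucleolar RNA probe sets, with 23 of 24 higher. Without the third homoharringtonine array it was 0.24, with 18 higher. Over the microRNA probe sets it was -0.56, and -0.45 without that array. The listing that chose the members used the same vehicle arrays, so nothing is read from these medians and counts. The arrays did not overlap in 14 microRNA probe sets, 5 higher and 9 lower, and in 5 small nucleolar RNA probe sets, all higher, beside 21.1% of all probe sets (9.46% higher and 11.7% lower).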

How the data were processed

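Total RNA of 9 lungs was extracted and terminally labelled for Affymetrix whole-transcript arrays, per the labels' protocols. Affymetrix Power Tools and R 3.5.1 are named in the submitters' processing notes. Neither the normalization nor the genome build is given in the sources used here. The deposited value table holds log2 signals, as judged from its range and the file headers. The authors' deposited tables hold for each listed probe set a fold change with a sign, an adjusted p-value and the score of a local pooled error (LPE) test, per the file headers, and list folds of at least 1.5. Log2 values in both files differed in 0 cells by over 1e-06. No arrays held identical values.

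Probe sets were taken by gene symbol. The members and the lists were chosen with earlier results of these data known. Spans of 31 probe sets are identical to genes of GRCm38.p6 and 15 overlap them. Every probe set was tested with limma 3.58.1 in R 4.3.3: group means of all 9 arrays (6 residual and 2.66 prior degrees of freedom), eBayes, 2-sided, Benjamini-Hochberg over 41345 probe sets within each comparison, at 0.05. Folds are 2 to the power of the log2 difference. P-values set a difference of group means against a spread that is pooled over all 3 groups and moderated by eBayes. The homoharringtonine arrays therefore enter the p-values for bleomycin against vehicle. For small nucleolar RNAs that group had the widest median SD (0.57, against 0.30 with bleomycin and 0.19 in vehicle). The number of arrays, 3 a group, limits precision. The fit was tested on simulated data.

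By the naming rule every array's value was given for members listed for homoharringtonine or in more than 1 table, for the 6 smallest p in each class with bleomycin, and for members sharing a host or lying within 10000 bases. Further members were given by choice after their values were seen. Nothing in the labels says that replicate numbers pair the mice, so the reported fit has no block. Deviations of arrays with the same number correlated from -0.14 to 0.09, and with different numbers from -0.06 to 0.11. These correlations cannot exclude a pairing. Alternatives were fits of the 2 groups compared, median centring, quantile normalization, array weights, a prior that is trended and robust, leaving out dim probe sets, cross-hybridisation type 1 alone, a replicate block and leaving out each array. Control probe sets were not separated.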

Additional observations from a re-analysis of the deposited data

How the results depend on the processing

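For bleomycin against vehicle, 21 members were called, 11 higher and 10 lower. After the filter on dim probe sets 17 were called, 12 higher and 5 lower, and in the 2-group fit 28, 17 higher and 11 lower. With a replicate block 14 were called, 9 higher and 5 lower, and 0 for each of the other comparisons. The labels do not say whether these numbers pair the mice. Leaving out single arrays gave 6 to 28 calls: 6 without vehicle replicate 3 or bleomycin replicate 2, 9 without vehicle replicate 2, 12 without bleomycin replicate 3, and 28 without homoharringtonine replicate 3. Among the 23 probe sets of cross-hybridisation type 1, 10 were called, fewer by construction. For homoharringtonine against bleomycin, 0 were called, 2 (Mir22 and Mir511, lower) after the filter on dim probe sets, which tests fewer, and 0 to 1 without single arrays (Mir511 without bleomycin replicate 1). For homoharringtonine against vehicle, 1 was called, 0 in the 2-group fit, 0 among type 1, 4 after the filter and 0 to 3 without single arrays; the cause was not tested. Without homoharringtonine replicate 1 there were 3, and without any single vehicle array 0. The shares of all probe sets called in these alternatives are not given, so the changes in count are not shown to be particular to the members.

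Of the members' own differences with bleomycin that were recomputed, 614 kept their direction and side of the threshold, 80 lost a call and 32 gained one, and 0 reversed. The 614 include members that were not called and stayed so, so they do not measure how stable the calls are. Among called members the losses reached 9 of 16 alternatives (Mir134). Mir126a and Mir28c kept their calls in all alternatives they entered. Among members not called, Mir30e gained a call in 6 of 15 alternatives, Snord65 in 4 of 16 and each other recomputed member in at most 2. Leaving out homoharringtonine replicate 3 was chosen as an alternative for the medians after seeing the data. Signals under the lower quartile limit what can be said of dim microRNAs.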

Other observations

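The authors' deposited tables also list small RNA transcripts that carry only an Ensembl identity and no Mir, Snora or Snord symbol. With bleomycin they hold 40 such small nucleolar RNA probe sets and 15 microRNA probe sets, whose directions are given beside those of the named members, and 51 small nuclear RNA probe sets, 35 higher and 16 lower. The difference between named and unnamed probe sets was not tested.

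Among the members whose hairpin is in the RefSeq table, the 5 that were higher with bleomycin had a median GC content of 58.2% and the 13 that were lower 45%. The 1005 hairpins in the table had a median of 51.7%. The higher and lower groups were formed by the measured direction, so this is a description.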
